A study of Homo sapiens with 12 samples.

Results

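The genes described here are 9 chloride channel and channel-related genes of the Tweety, bestrophin and CLCA families and beside them, namely TTYH1, TTYH2, TTYH3, BEST1, BEST3, CLCA2, CLCA4, CLCC1 and CFTR. Their rows were taken by gene name from a table of 58302 genes, and all 9 were found. They were picked with their expression in these libraries already known, so their levels and differences are given as a description. A count of members past the threshold of the fit across all genes is given only beside the same share of all genes. RNA sequencing was performed on 3 established human prostate cell lines with 4 libraries each. BPH-1 is a line from benign prostate epithelium, and DU145 and PC3 are prostate cancer lines from a brain and a bone metastasis. All lines were labelled wild type, were grown in the same medium with 10% serum and carried no treatment. Each group is a single line, so a difference between lines cannot be told apart from what is particular to that line, and nothing in the labels says that replicates came from separate cultures. P-values then measure only the spread between these libraries. Because RNA was taken in bulk, fewer cells with a transcript and less of it per cell cannot be told apart.

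Chloride channels set membrane voltage, cell volume and fluid secretion in epithelia. Tweety proteins were first described as large-conductance anion channels, and whether they form a pore is debated. Bestrophins are calcium-activated chloride channels. CLCA proteins are cleaved at the cell surface and modulate calcium-activated chloride currents rather than forming the pore, CLCC1 lies in the endoplasmic reticulum, and CFTR is the cAMP-regulated channel that is mutated in cystic fibrosis.

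Values are FPKM, reads scaled to gene length in kilobases and to the depth of the library. For most genes the deposited values fit a length that is the sum of all distinct annotated exons, so levels of different genes are compared per that length and not per transcript. The libraries held between 12950664 and 16309560 counted reads. A gene with fewer than 3 reads in a library counts as not detected there, and this limit covers counting error only. Of 6 epithelial markers, BPH-1 had a mean of at least 1 FPKM for 6, PC3 for 4 and DU145 for 3. EPCAM and CDH1 were below 1 FPKM in every DU145 library and KRT5 was below 1 FPKM in every DU145 and PC3 library. The other keratins were present in both cancer lines. In DU145, KRT8 was at 14.7 to 32.5, KRT18 at 52.8 to 99.2 and KRT19 at 15.6 to 31.2 FPKM. In PC3 they were at 15.9 to 31.1, 26.8 to 34.7 and 164 to 307 FPKM. Of 11 markers of other cell types, 3 reached that mean in BPH-1, 1 in DU145 and 3 in PC3, with summed levels of 9.04 to 13.7, 6.69 to 12.6 and 11.9 to 19.8 FPKM. The T-cell gene CD3E was at 0 throughout, and the leukocyte gene PTPRC lay between 1.15 and 1.54 FPKM in BPH-1, between 0 and 1.35 in DU145 and at 0 in PC3. The blood marker CD68 was at 3.43 to 6.57 FPKM in BPH-1, 3.83 to 9.95 in DU145 and 6.86 to 13.5 in PC3. The fibroblast marker COL1A1 was at 1.71 to 3.08, 0.354 to 0.524 and 2.99 to 3.84 FPKM. The endothelial marker PECAM1 was at 1.19 to 2.28 FPKM in PC3 and at most 0.179 in BPH-1 and 0.224 in DU145. The part of these markers in the results was not tested.

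The start regions of 4 members are shown because these genes were detected and span the range from the most to the fewest CG dinucleotides among the members. The sequences are from RefSeq on GRCh38.p14, each running from 250 bases before to 50 bases after the listed start, 5′ to 3′ on the strand of the gene. Of the 9 members, 7 had an entry. TTYH2 had 3, and the entry nearest the deposited gene start was taken. Capitals mark 3 motifs searched on both strands, the GC box (GGGCGG or CCGCCC), the CCAAT box (CCAAT or ATTGG) and the TATA box (TATAAA or TTTATA). Neighbouring matches may share bases.
TTYH2, chr17:74213321-74213620, plus strand: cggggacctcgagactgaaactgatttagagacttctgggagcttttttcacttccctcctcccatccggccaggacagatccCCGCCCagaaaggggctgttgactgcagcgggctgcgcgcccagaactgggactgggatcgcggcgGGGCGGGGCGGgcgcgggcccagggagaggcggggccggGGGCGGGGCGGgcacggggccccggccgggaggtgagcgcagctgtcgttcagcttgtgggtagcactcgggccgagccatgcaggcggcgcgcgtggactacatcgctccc
TTYH3, chr7:2631736-2632035, plus strand: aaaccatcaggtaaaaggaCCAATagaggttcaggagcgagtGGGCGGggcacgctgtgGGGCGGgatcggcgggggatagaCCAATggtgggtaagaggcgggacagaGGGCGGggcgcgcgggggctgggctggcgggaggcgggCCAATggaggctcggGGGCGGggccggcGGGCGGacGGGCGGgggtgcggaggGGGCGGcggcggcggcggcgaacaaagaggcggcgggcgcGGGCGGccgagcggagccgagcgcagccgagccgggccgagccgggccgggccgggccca
CLCA2, chr1:86423921-86424220, plus strand: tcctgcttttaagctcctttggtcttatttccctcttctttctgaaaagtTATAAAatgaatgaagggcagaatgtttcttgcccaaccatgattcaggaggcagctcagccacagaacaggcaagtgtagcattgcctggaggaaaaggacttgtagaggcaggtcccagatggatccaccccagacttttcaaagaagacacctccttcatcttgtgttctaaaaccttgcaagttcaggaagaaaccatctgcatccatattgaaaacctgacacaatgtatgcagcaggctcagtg
CLCC1, chr1:108963435-108963734, minus strand: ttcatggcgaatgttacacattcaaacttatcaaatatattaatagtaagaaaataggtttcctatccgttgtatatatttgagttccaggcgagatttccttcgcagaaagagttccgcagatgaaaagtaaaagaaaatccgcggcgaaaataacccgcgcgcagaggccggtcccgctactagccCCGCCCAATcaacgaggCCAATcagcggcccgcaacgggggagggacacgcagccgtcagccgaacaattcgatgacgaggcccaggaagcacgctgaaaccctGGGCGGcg

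The TTYH3 window held 8 GC boxes and 3 CCAAT boxes, and the TTYH2 window held 5 GC boxes and no CCAAT box. CLCC1 had 2 GC boxes and 2 CCAAT boxes, of which the GC box 62 bases before the start shares bases with the CCAAT box that follows it. CLCA2 had no match to either motif and 1 TATA box, 200 bases before the start. Of 35116 RefSeq promoters of the same length, 45.0% held a GC box, 34.6% a CCAAT box and 11.5% a TATA box. The number of CG dinucleotides was 42 in TTYH3, 30 in TTYH2, 26 in CLCC1 and 0 in CLCA2, against a median of 14 over all promoters. No CG at all was found in 3.96% of promoters, and 42 or more in 5.85%. The remaining windows held 38 CG dinucleotides in TTYH1, 12 in CFTR and 2 in CLCA4. These matches describe the letters of the windows and do not show binding of any factor.

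TTYH2 (ENSG00000141540, chr17:74213514-74262020, plus strand, GRCh38) was lowest in BPH-1 and highest in PC3. Its FPKM in BPH-1 replicates 1 to 4 was 0.584, 0.680, 0.632 and 1.06. In DU145 it was 2.83, 2.23, 3.51 and 2.31, and in PC3 it was 10.2, 9.57, 9.44 and 13.6. No library of a line overlapped those of another, and the nearest gap lay between BPH-1 replicate 4 and DU145 replicate 2. The means were 0.738 ± 0.216, 2.72 ± 0.594 and 10.7 ± 1.93 FPKM (SD, n = 4 each). The mean of PC3 was 14.5-fold that of BPH-1 and 3.93-fold that of DU145, and the mean of DU145 was 3.68-fold that of BPH-1. When each library's trend with gene GC content was divided out, these folds were 11.3, 4.47 and 2.52. On the log2(FPKM + 1) scale, which understates changes of low genes, the difference was 2.74 (SE 0.15) for PC3 against BPH-1, 1.09 (SE 0.16) for DU145 against BPH-1 and 1.65 (SE 0.17) for PC3 against DU145.

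TTYH3 (ENSG00000136295, chr7:2631951-2664802, plus strand), a close relative of TTYH2, had the highest FPKM of the 9 genes in every library except DU145 replicate 2, where CLCC1 exceeded it. It was 14.3, 16.3, 13.4 and 16.3 FPKM in BPH-1, 6.40, 4.79, 7.98 and 5.81 in DU145 and 23.5, 24.3, 27.1 and 25.7 in PC3. The order differed from that of TTYH2, with DU145 lowest and BPH-1 between the cancer lines, again without overlap. Means were 15.1 ± 1.45, 6.24 ± 1.33 and 25.1 ± 1.58 FPKM (SD, n = 4). The log2 difference was 0.70 (SE 0.10) for PC3 against BPH-1, −1.16 (SE 0.17) for DU145 against BPH-1 and 1.87 (SE 0.16) for PC3 against DU145. When each library's trend with gene GC content was divided out, the difference for PC3 against BPH-1 was 0.15, and that for DU145 against BPH-1 was −1.71. TTYH3 had a GC content of 64.5%, the highest of the 9 genes. Dividing out this trend would also take away a difference between lines that runs with GC content for biological reasons.

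**Figure D1:**
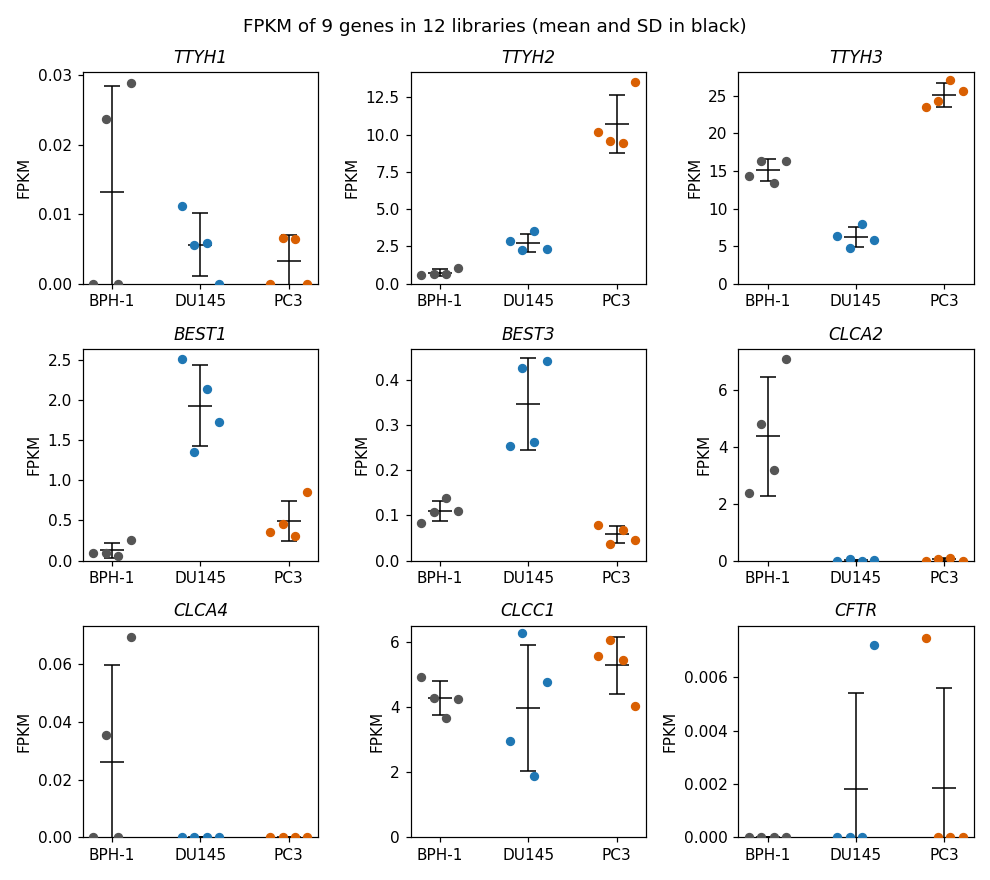
FPKM (vertical axes, linear, separate for each gene) of the 9 genes in the 4 libraries of BPH-1, DU145 and PC3, with points in replicate order from left to right and the mean and SD in black. TTYH2 and TTYH3 reach 10.7 and 25.1 FPKM on average in PC3, CLCA2 is seen in BPH-1, BEST1 and BEST3 are highest in DU145, and TTYH1, CLCA4 and CFTR stay below 0.1 FPKM.

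The ratio of TTYH2 to TTYH3 within a library was 0.0408, 0.0417, 0.0471 and 0.0649 in BPH-1. It was 0.443, 0.465, 0.441 and 0.397 in DU145 and 0.434, 0.394, 0.349 and 0.528 in PC3. Both cancer lines therefore lay above BPH-1 in every library, while the ranges of DU145 and PC3 overlapped. The mean ratio was 0.0486 ± 0.0112 in BPH-1, 0.436 ± 0.0288 in DU145 and 0.426 ± 0.0762 in PC3 (SD, n = 4), and a scaling factor per library leaves this ratio as it is.

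**Figure D2:**
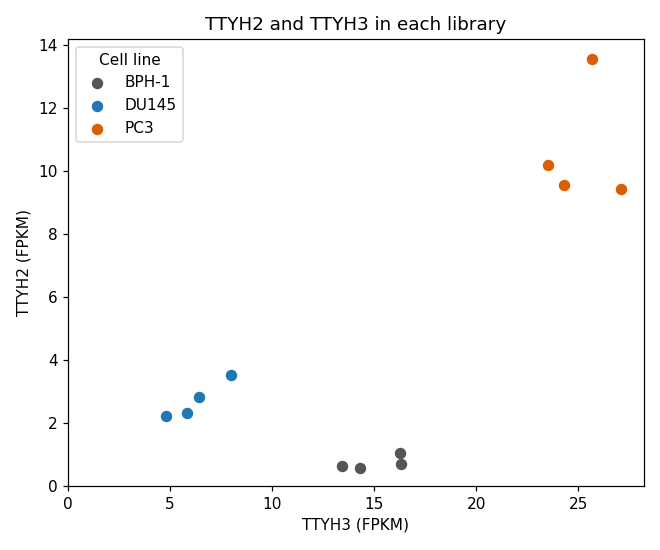
TTYH2 (vertical axis, FPKM) against TTYH3 (horizontal axis, FPKM), with 1 point per library coloured by cell line. BPH-1 lies along the bottom with a ratio near 0.0486, and DU145 and PC3 lie along a steeper line at ratios near 0.436 and 0.426, with PC3 at the higher levels of both genes.

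TTYH1 (ENSG00000167614, chr19:54415219-54436900, plus strand), the Tweety gene best known from the nervous system, was scarcely found. It had 4 and 5 reads in BPH-1 replicates 2 and 4, at most 2 reads in any DU145 library and at most 1 in any PC3 library. It passed the limit of 3 reads only in those 2 BPH-1 libraries and was not tested.

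BEST1 (ENSG00000167995, chr11:61949821-61965515, plus strand) encodes the bestrophin of the retinal pigment epithelium, mutated in a form of macular dystrophy. It was highest in DU145, at 2.52, 1.35, 2.13 and 1.72 FPKM. In PC3 it was 0.355, 0.461, 0.307 and 0.853, and in BPH-1 it was 0.0935, 0.0989, 0.0531 and 0.259. The 3 lines did not overlap, although BPH-1 replicate 4 came close to PC3 replicate 3. These values rest on 320 to 594 reads per library in DU145, 62 to 161 in PC3 and 12 to 59 in BPH-1. The mean in DU145 was 15.3-fold that of BPH-1, or 23.6-fold without BPH-1 replicate 4, and 3.91-fold that of PC3. With the GC trend divided out, the folds were 10.9 over BPH-1 and 3.27 over PC3. The difference in log2(FPKM + 1) was 1.37 (SE 0.13) for DU145 against BPH-1, 0.40 (SE 0.11) for PC3 against BPH-1 and −0.97 (SE 0.17) for PC3 against DU145.

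BEST1 shares 1267 exonic bases, 14.2% of its own, with FTH1, the ferritin heavy chain gene on the opposite strand. Whether the authors counted reads by strand is not given in the sources used here, so reads of the shared bases cannot be assigned with certainty. FTH1 was at 226 ± 54.3 FPKM in BPH-1, 247 ± 72.5 in DU145 and 583 ± 204 in PC3 (SD, n = 4). Its BPH-1 and DU145 libraries overlapped, and it was highest in PC3, unlike BEST1. BEST1 per 1000 FPKM of FTH1 was 6.26 to 9.73 in DU145, 0.495 to 1.02 in PC3 and 0.271 to 0.845 in BPH-1, so that PC3 and BPH-1 overlapped on this ratio. Replicate 4 was highest for both genes in BPH-1, with 307 FPKM of FTH1, and in PC3, with 856. DU145 differed, with BEST1 highest in replicate 1 and FTH1 highest in replicate 3, at 341 FPKM.

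BEST3 (ENSG00000127325, chr12:69643360-69699476, minus strand), a bestrophin known from heart and skeletal muscle, followed BEST1 in being highest in DU145 but was lowest in PC3. Its FPKM was 0.255, 0.427, 0.262 and 0.442 in DU145. It was 0.0837, 0.107, 0.139 and 0.110 in BPH-1, and 0.0797, 0.0376, 0.0682 and 0.0465 in PC3. Libraries of the lines did not overlap, but BPH-1 replicate 1 and PC3 replicate 1 were nearly equal, with 15 and 12 reads. The log2 difference was 0.28 (SE 0.06) for DU145 against BPH-1, −0.34 (SE 0.06) for PC3 against DU145 and −0.07 (SE 0.03) for PC3 against BPH-1. With a pseudocount of 0.1 these differences were, in the same order, 1.07, −1.48 and −0.41. Voom on the recovered reads gave 1.60, −2.52 and −0.92. BEST2 and BEST4, the other bestrophins, had at most 4 and at most 3 reads in any library and were not tested.

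CLCA2 (ENSG00000137975, chr1:86424086-86456558, plus strand) is known from basal and stratified epithelium. It was found in BPH-1 at 2.38, 4.80, 3.18 and 7.10 FPKM, from 167, 333, 224 and 503 reads. In DU145 it had 0, 3, 0 and 1 reads and in PC3 0, 4, 6 and 0 reads. BPH-1 was above every cancer library, and DU145 and PC3 overlapped near the detection limit. The BPH-1 mean of 4.37 ± 2.08 FPKM (SD, n = 4) was 109-fold that of PC3 (95% exact interval from the summed reads 57.5 to 222) and 307-fold that of DU145 (119 to 1119). These intervals cover counting error only. Without PC3 replicate 3 the fold over PC3 was 204, and without DU145 replicate 2, which leaves 1 read in DU145, the fold over DU145 was 798 (95% exact interval 160 to 35351). Dividing out the GC trend lowered the BPH-1 mean to 2.03 FPKM, with folds of 39.1 over PC3 and 163 over DU145. The highest and the lowest BPH-1 library differed 2.98-fold.

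CLCA2 lies in a cluster of CLCA genes on chromosome 1. CLCA4 (ENSG00000016602, chr1:86547078-86580754, plus strand), a CLCA gene of the gut, had 2 and 4 reads in BPH-1 replicates 2 and 4 and 0 in the other 10 libraries. In DU145 and PC3, 0 reads allow up to 0.0498 to 0.0627 FPKM, depending on the library. The pseudogene CLCA3P had 1, 6, 3 and 0 reads in BPH-1 and 0 in both cancer lines, and CLCA1 was at 0 in all 12 libraries. The protein-coding genes on either side were also highest in BPH-1. Over all genes tested, 40.4% were called lower in PC3 and 32.4% lower in DU145 than in BPH-1. A shared change of this region was not tested. ODF2L, a centriole gene, was at 0.880 ± 0.0455 FPKM in BPH-1, 0.159 ± 0.0289 in DU145 and 0.189 ± 0.107 in PC3. SH3GLB1, which encodes endophilin B1, was at 8.52 ± 0.677, 2.93 ± 1.18 and 3.02 ± 0.751 FPKM (SD, n = 4).

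**Figure D3:**
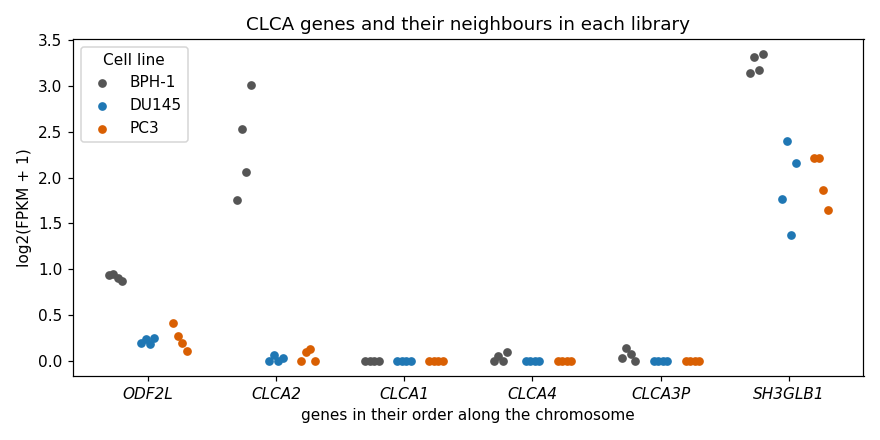
Level of the CLCA genes and of the protein-coding genes on either side (vertical axis, log2(FPKM + 1)) in each library, with genes in chromosome order and points coloured by cell line. BPH-1 is above both cancer lines for CLCA2, ODF2L and SH3GLB1, and CLCA1, CLCA4 and CLCA3P are at or near 0 in all lines.

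TP63, the transcription factor of basal epithelium and a regulator of CLCA2 known from other work, was at 12.9 ± 1.18 FPKM in BPH-1, 0.0286 ± 0.0252 in DU145 and 0.00876 ± 0.0112 in PC3 (SD, n = 4). It thus shared the order of CLCA2 between BPH-1 and the cancer lines.

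CLCC1 (ENSG00000121940, chr1:108929508-108963457, minus strand) was present in every library of all 3 lines. It was 4.93, 4.29, 3.68 and 4.25 FPKM in BPH-1, 2.97, 6.29, 1.90 and 4.77 in DU145 and 5.56, 6.08, 5.45 and 4.04 in PC3. The lines overlapped, and DU145 spanned more than the other lines, from 239 to 837 reads. The log2 difference was 0.24 (SE 0.14) for PC3 against BPH-1, −0.17 (SE 0.27) for DU145 against BPH-1 and 0.41 (SE 0.28) for PC3 against DU145. With the GC trend divided out, CLCC1 was higher in both cancer lines, with differences of 1.14 for PC3 and 0.81 for DU145 against BPH-1, and the sign of the latter thereby turned, as it did with upper-quartile scaling (0.06). Without PC3 replicate 4, the difference for PC3 against BPH-1 was 0.35, and with upper-quartile scaling it was 0.58.

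CLCC1 shares 2801 exonic bases, 56.4% of its own, with GPSM2, a regulator of spindle orientation on the opposite strand, so its level is uncertain if strand was not used. GPSM2 was at 7.31 ± 0.108 FPKM in BPH-1, 2.14 ± 1.42 in DU145 and 2.80 ± 1.10 in PC3 (SD, n = 4). In DU145 it was 1.06, 3.63, 0.798 and 3.06 FPKM, with the same libraries high as for CLCC1, and in PC3 replicate 4 was lowest for both genes. In BPH-1 GPSM2 stood above both cancer lines, which CLCC1 did not.

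The spread of members within DU145 ran with their GC content. For each library, the median deviation from the mean of its line was compared between the 3107 genes highest in GC content and the 3107 lowest. This contrast was 0.65, −1.25, 1.43 and −0.86 on the log2 scale in DU145 replicates 1 to 4. It lay between −0.13 and 0.10 in BPH-1 and between −0.60 and 0.96 in PC3. CLCC1 and BEST3, with a GC content of 42.5% and 45.3%, were high in DU145 replicates 2 and 4. TTYH2, TTYH3 and BEST1, with 58.2%, 64.5% and 54.4%, had their highest 2 values in replicates 1 and 3. Dividing out the GC trend lowered the coefficient of variation in DU145 from 48.7% to 11.3% for CLCC1, from 21.8% to 5.27% for TTYH2 and from 21.4% to 8.16% for TTYH3. For BEST3 it went from 29.5% to 13.5% and for BEST1 from 26.2% to 14.7%.

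**Figure D4:**
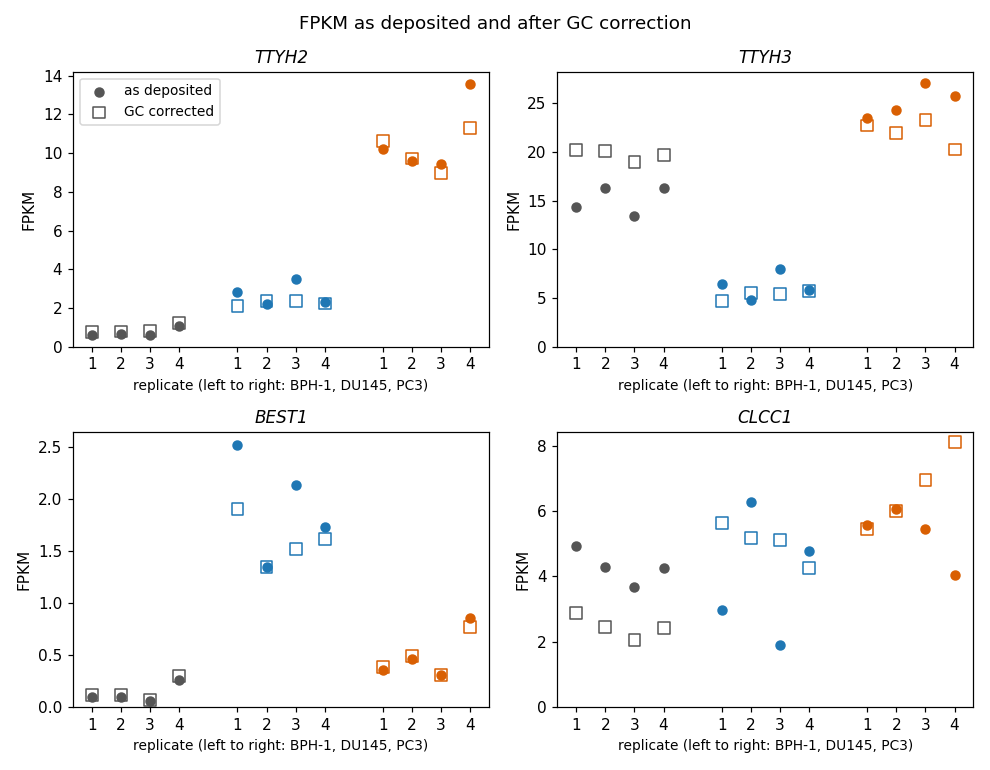
FPKM of TTYH2, TTYH3, BEST1 and CLCC1 (vertical axes, linear) by library, as deposited (filled circles) and after each library's GC trend was divided out (open squares), with replicates 1 to 4 of BPH-1, DU145 and PC3 from left to right. The squares of CLCC1 in DU145 lie between 4.26 and 5.63 where the circles range from 1.90 to 6.29, and the squares of TTYH3 in BPH-1 move up to between 19.0 and 20.2.

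CFTR (ENSG00000001626, chr7:117465784-117715971, plus strand) was essentially absent at this depth. It was listed at 0.00722 FPKM in DU145 replicate 4, at 0.00747 in PC3 replicate 1 and at 0 in the other 10 libraries. With the GENCODE 29 length each of these values comes to 1.32 reads, which is not whole. The reason was not tested, and the number of reads behind them is uncertain. Both values are below the limit of 3 reads at that length.

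The 9 genes together summed to 24.8 ± 3.69 FPKM in BPH-1, 15.2 ± 0.371 in DU145 and 41.7 ± 2.004 in PC3 (SD, n = 4). TTYH3 made up 61.3%, 40.9% and 60.3% of that sum on average. The rest was mainly CLCC1 (17.6%) and CLCA2 (17.1%) in BPH-1, CLCC1 (26.3%), TTYH2 (17.8%) and BEST1 (12.7%) in DU145, and TTYH2 (25.6%) and CLCC1 (12.7%) in PC3.

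Of the 9 genes, 6 passed the filter on low values in PC3 against BPH-1, and 4 of them were called by limma at a Benjamini-Hochberg adjusted p under 0.05, against 67.6% of all genes tested. These were 3 higher (27.1% of all genes) and 1 lower (40.4%). In DU145 against BPH-1, 5 of 6 were called, against 62.7% of all genes, with 3 higher (30.3%) and 2 lower (32.4%). In PC3 against DU145, 4 of 5 were called, against 48.3%, with 2 higher (20.0%) and 2 lower (28.3%). Libraries did not overlap for 5 of 6, 5 of 6 and 4 of 5 members, against 64.4%, 59.5% and 46.5% of all genes. Because the members were chosen from these contrasts, nothing is read from these counts. Comparisons that share a line share its libraries. Of all genes called in PC3 against BPH-1, 40.2% were higher in PC3, and with upper-quartile scaling 55.2% were.

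**Figure D5:**
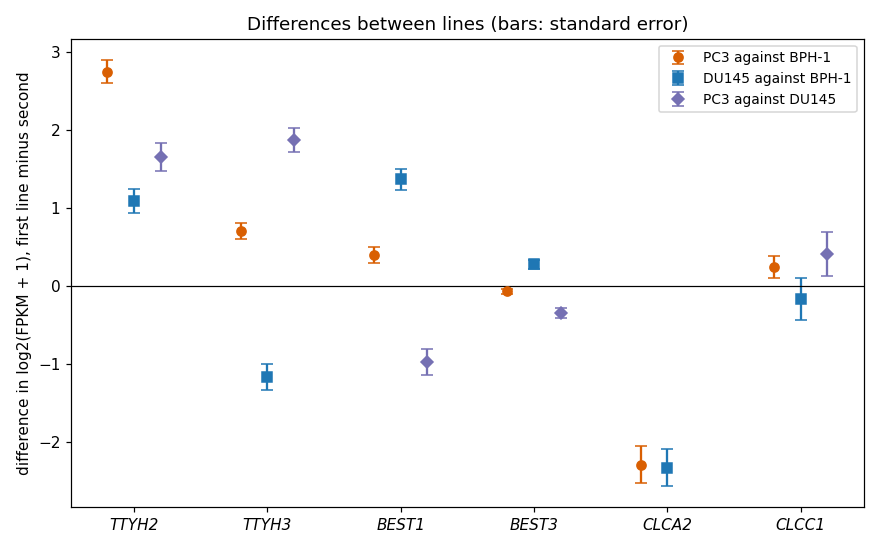
Difference in log2(FPKM + 1) between lines (vertical axis, first line minus second) with its standard error for the 6 members that passed the filter in at least 1 comparison. TTYH2 is above 0 in all 3 comparisons, TTYH3 and BEST1 change sign between comparisons, CLCA2 lies at −2.29 and −2.32 against BPH-1, and CLCC1 lies between −0.17 and 0.41.

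Genes that work with CFTR and related chloride transporters, such as scaffolds, chaperones, ubiquitin ligases and kinases, were followed as a list of 28. In PC3 against BPH-1, 17 of the 24 tested were called, 12 higher and 5 lower, with a median log2 difference of 0.41 against −0.13 over all genes. With libraries scaled to the same summed FPKM, 11 were higher and 8 lower, and with upper-quartile scaling 14 were higher and 4 lower. SLC9A3R2, the scaffold NHERF2, was 2.66 (SE 0.14) higher in PC3 and STX1A, a syntaxin that binds CFTR, was 2.50 (SE 0.14) higher. PDZK1, another PDZ scaffold, was lower (−3.22, SE 0.26), as was NEDD4, a ubiquitin ligase (−2.52, SE 0.14). In DU145 against BPH-1, 18 of 25 were called, 7 higher and 11 lower, with a median of −0.27 against −0.03. STX1A (1.75) and ADCY6, an adenylyl cyclase (1.65), were the most raised, and PDZK1 (−3.19) and the chaperone HSPA8 (−2.90) the most lowered. In PC3 against DU145, 16 of 25 were called, 12 higher and 4 lower, with a median of 0.52 against −0.05, led by SLC9A3R2 (3.25) and HSPA8 (2.98) upwards, with NEDD4 (−1.44) among those lower. NEDD4L, a ligase reported to act on Tweety proteins, was at 4.17 ± 0.800, 3.57 ± 1.45 and 5.37 ± 0.794 FPKM in BPH-1, DU145 and PC3 and was not called in any comparison.

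Beside CLCC1, 22 genes of calcium handling in the endoplasmic reticulum were counted. In PC3 against BPH-1, 13 of 21 tested were called, 7 higher and 6 lower, with a median of −0.17 against −0.13. The calcium release channel ITPR1 (1.84) and the store-operated channel ORAI1 (1.61) were the most raised, and the lectin chaperone CANX (−1.79) and the chaperone HSPA5 (−1.36) the most lowered. This split was 5 higher and 10 lower when libraries were scaled to the same summed FPKM. With upper-quartile scaling it was 8 higher and 5 lower. In DU145 against BPH-1, 13 of 21 were called, 5 higher and 8 lower, with ATP2A3, a calcium pump (1.37), and TMBIM6 (1.27) raised and CANX (−2.06) and the release channel ITPR2 (−1.36) lowered. The median was −0.07 against −0.03. With upper-quartile scaling 8 were higher and 6 lower, and with the same summed FPKM 3 were higher and 9 lower. In PC3 against DU145, 9 of 20 were called, 4 higher and 5 lower, with CALR, calreticulin (1.10), and ORAI1 (0.94) up and HSPA5 (−1.69) and ATP2A3 (−1.36) down, and with upper-quartile scaling 5 were higher and 4 lower. The median was 0.21 against −0.05, and with the same summed FPKM 4 were higher and 5 lower. CANX stands in this list and in that of the CFTR partners. Calls in these 2 lists had an adjusted p under 0.05 in the limma fit across all genes, and over all genes 27.1% were higher and 40.4% lower in PC3 against BPH-1, 30.3% and 32.4% in DU145 against BPH-1, and 20.0% and 28.3% in PC3 against DU145.

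For the 5 members with a mean of at least 50 reads, the protein-coding genes with the most similar profile over the 12 libraries were found by Pearson's r on log2(FPKM + 1), among 10837 candidates. TTYH2 was most like PLPPR2 (r = 0.99) and KRT86 (0.99), TTYH3 most like RAD9A (0.99) and PLTP (0.99), and BEST1 most like ACOT13 (0.99) and SLC6A9 (0.99). CLCA2 was most like SERPINB13 (0.99), a serpin of stratified epithelium, and FXYD3 (0.99). CLCC1 was most like FANCD2 (0.97) and BAG5 (0.95). These values describe 12 libraries that fall into 3 lines and share depth and GC trends, and the genes are the best of many.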

How the data were processed

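RNA of 3 prostate cell lines was sequenced in 12 libraries. The authors deposited 1 normalized value per gene and library, treated here as FPKM because the values have that form and the header names no unit. The submitters' processing notes name CASAVA 1.8, HISAT2 2.1.0, edgeR and GRCh38; the counting program, strand and filters are not given in the sources used here. Each of the 12 columns was assigned by its name.

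Depth was recovered from the steps between low FPKM values with gene lengths from GENCODE 29 as the sum of distinct exons. Between 92.2% and 93.6% of low values (up to 25 reads) came out within 0.02 of a whole read. Of 58302 genes, 56610 lay at their GENCODE 29 locus, and 263 without a length were left out of the tests. Recovered reads served for the filter, the limit of 3 reads and voom. The depth was 12950664 to 16309560 reads.

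For each pair of lines, their 8 libraries entered a limma-trend model of log2(FPKM + 1) (limma 3.58.1, R 4.3.3) with 2-sided tests (Benjamini-Hochberg over all genes tested, called at an adjusted p under 0.05). Genes needed 10 reads at the median depth in 4 libraries and 15 in all. The fit was tested on simulated counts without a GC trend between libraries, so it was not tested under the spread seen here. At the larger simulated spread, part of the changed genes was missed. Python 3.11.15, pandas 2.3.3 and scipy 1.17.1 were also used. No 2 libraries of a line were duplicates: in each of 18 pairs the reads differed beyond sampling noise, by a chi-square of 17.9 to 221 per gene. The members and gene lists were chosen with earlier results of these data known. Named genes were the members, their relatives, overlapping genes with at least 10 reads, neighbours of CLCA2 and CLCA4, the 2 genes most like each member with at least 50 reads, the 2 called genes with the largest rise and fall per list, and TP63 and NEDD4L. Results of some of these genes and of 1 gene list are not reported here. Alternatives were other filters, a pseudocount of 0.1, scalings, a GC correction (a spline, 5 degrees of freedom, on genes whose mean was at least 50 reads), voom, a replicate block, 1 fit over all lines and leaving out each library.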

Additional observations from a re-analysis of the deposited data

Results flagged for a closer look

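CFTR was singled out in 2 groups, because 1 library of 4 stood apart from the others by the whole range of the group (Dixon's test at 95%). It was 0.00722 FPKM in DU145 replicate 4 and 0.00747 FPKM in PC3 replicate 1, and 0 in the other libraries of those lines. Of 30 groups of 4 libraries, these 2 stood apart. The rule always flags a group with 1 value above 0 and the rest at 0, so the usual 5% by chance does not apply. With the GENCODE 29 length both values are below the limit of 3 reads.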

How the results depend on the processing

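Of 319 alternative values of member fold changes, 273 stayed within 1 SD of the replicates, 46 moved further and 0 changed sign among the differences that limma called. Other filters, the replicate block and the fit over all lines cannot move such a difference. Leaving out 1 library cannot move it by a full SD. The share that stayed is therefore no measure of robustness. Of 228 counts of called genes, 227 stayed within 1.5 times. The exception was PC3 against DU145 with the stricter filter of 10 reads in every library, with 5223 genes called instead of 7936; this filter tests fewer genes. TTYH3 in PC3 against BPH-1 ranged from 0.15 (GC correction) to 1.09 (upper-quartile scaling), and scaling moved the median over all genes in that comparison from −0.13 to −0.28 (same summed FPKM) and 0.10 (upper quartile). CLCC1 in DU145 against BPH-1 was −0.17 and changed sign, to 0.81 with the GC correction, 0.06 with upper-quartile scaling and 0.06 at most when a library was left out. CLCA2 against BPH-1 ran from −7.21 (voom) to −1.48 (GC correction) in PC3 and from −8.03 to −1.53 in DU145. The causes were not tested.

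With the replicate block, 10733 genes were called between PC3 and BPH-1, 10131 between DU145 and BPH-1 and 6747 between PC3 and DU145, and the members called were those called without it. Other settings changed the members called. With the GC correction, TTYH3 lost its call in PC3 against BPH-1, and CLCC1 gained a call in both cancer lines against BPH-1. CLCC1 was also called in PC3 against BPH-1 with upper-quartile scaling and without PC3 replicate 4. BEST3 gained a call in PC3 against BPH-1 with a pseudocount of 0.1, with the same summed FPKM and with voom. CLCA2 did not pass the stricter filter. BEST3 passed it only in DU145 against BPH-1, so its call in PC3 against DU145 was lost there. No pairing by replicate number was seen: deviations of same-numbered libraries correlated between −0.65 and 0.51 over 12 pairs. These deviations also carry each library's GC trend, so they cannot decide whether the samples were paired. A GC correction with the replicate block, and folds between line means without each library and with the GC correction, were added after the data were seen. TTYH1, CLCA4 and CFTR are limited by depth.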
